A study of Mus musculus with 8 samples.

Results

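A window of mouse chromosome 6 between positions 66016186 and 66240994 of GRCm38 held 1177 of the 8492 cytosines listed as methylated in the RNA of Tet2-deficient mast cells. Its members are all listed sites between those positions. The window was chosen by its number of listed sites, so that number is a description and not a result. The cells were bone marrow derived mast cells of C57BL/6 mice with the genotype Tet2-/-, grown with IL-3 and SCF and checked for the surface receptors FcεRI and c-Kit. The labels describe 8 libraries, from wild-type and Tet2-/- cells, each genotype having 2 biological replicates that were both run as 2 technical replicates. The values analysed here come from the 4 Tet2-deficient libraries. Neither the design of the Tet2 allele nor whether the biological replicates came from separate mice is stated in the labels. Expression of mast cell markers was not analysed here, so the cell type rests on the labels.

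In RNA bisulfite sequencing, unmodified cytosine is converted to uracil and read as thymine, while 5-methylcytosine still reads as cytosine. A site's level is the percentage of its reads with cytosine, and cytosine that escaped conversion counts in it as well. In RNA the mark is placed by enzymes of the NSUN family and by DNMT2, and TET2 is an enzyme that oxidises 5-methylcytosine. Long noncoding RNAs and transcripts from between genes can carry a poly(A) tail and then enter such libraries beside mRNA.

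The sites had been listed by the study as specific to the Tet2-deficient group. Wild-type levels were not analysed here, and nothing below compares the genotypes. Levels under 10% are not in the table, and depth is unknown. Errors are the SD over 2 biological replicates, each the mean of its 2 technical replicates.

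The nearest listed sites on both sides lay further from the window than the window is long. The usual distance between stretches of the table was not computed here. The nearest listed site before it, 894 kb away at 65122338, lay in Hpgds, the prostaglandin D synthase of mast cells, at 18.8% ± 2.34 (SD, n = 2). The nearest listed site after it, 58.9 Mb away at 125186446, lay in Ncapd2, a condensin subunit, at 61.2% ± 23.0 (SD, n = 2). With 224809 bases the window held 13.9% of the listed sites of the genome and 65.0% of those of chromosome 6. The next densest window of the same length, in the immunoglobulin heavy chain locus on chromosome 12, held 559 sites, and the one after it, elsewhere on chromosome 6, held 507.

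Few of the window's sites lay in a gene. Of the 1177 sites, 1035 (87.9%) lay outside every RefSeq gene span, against 13.6% of the listed sites elsewhere. The window thereby held 51.0% of the 2028 listed sites outside gene spans. The other 142 sites lay in Gm36408, a long noncoding RNA gene (gene ID 102640309) that spans 66148439 to 66272364 on the minus strand. It is the only gene whose span overlaps the window. Its sites began 31.4 kb downstream of the annotated start of transcription and reached 98.2 kb from it. The interval from 66272315 to 66272614 around that start lies beyond the window's last site, at 66240994, and held none of the listed sites. This follows from the end of the window and the distance to the next listed site. The nearest site beyond the other end of the gene was 5.68 kb away. Exons and introns were not analysed here, so sites in the span need not lie in the spliced RNA. The strand of the sites is unknown as well, so they need not come from RNA of this gene.

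Of the genes around the window, 2 had listed sites. The share over all genes of the genome was not computed here, so this count is a description. Within 1 Mb on either side, 51 RefSeq genes were annotated, of which 18 are protein-coding, 12 are long noncoding RNAs and 18 are pseudogenes. Besides Gm36408, only Hpgds had a listed site, and it had 1. The nearest gene before the window was the pseudogene Gm5876, 19.6 kb away. The nearest protein-coding gene on that side was 4930544G11Rik, 62.2 kb away. The nearest gene after the window was the transcribed pseudogene Gm31520, 31.5 kb from the last site. Mad2l1, a spindle checkpoint protein, lay 294 kb after the window, and Gadd45a, a stress-induced growth arrest gene, lay 794 kb after it. Coverage is unknown, so the absence of listed sites in these genes does not show that their RNA was unmethylated.

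**Figure D1:**
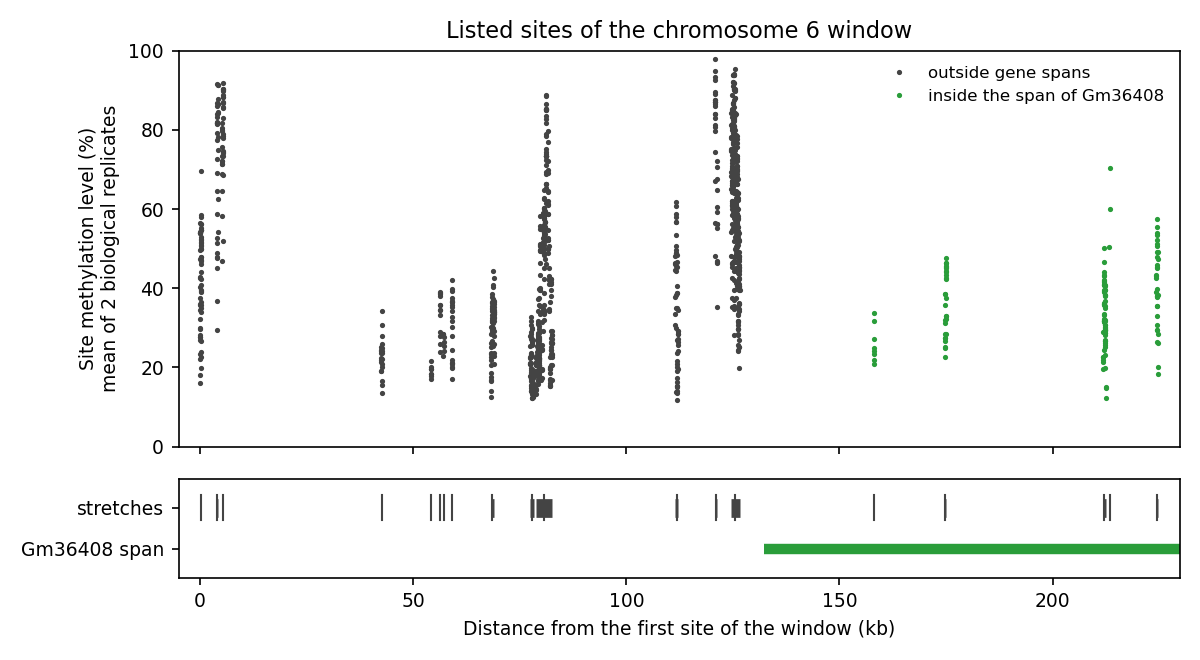
Level of each of the 1177 listed sites in percent (vertical axis, mean of 2 biological replicates) against distance in kb from the first site of the window. The lower panel marks the 19 stretches, each with a tick at its centre, and the span of Gm36408, which runs past the right edge; the 142 green sites inside it reach at most 70.3%, while grey sites outside gene spans reach 97.9%.

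The sites crowded into 19 stretches, made by joining sites up to 500 bases apart and numbered here by position. Together the stretches covered 11593 bases, 5.16% of the window, with 10.2 sites per 100 bases. They ran from 21 to 3788 bases in length and were separated by 502 to 37011 bases, with a median gap of 8582 bases. The shortest gap, between stretches 10 and 11, was just over the joining distance. There were 15 stretches of 10 or more sites, which held 1151 of the 1177 sites. Stretches 11 and 14 alone held 599 sites (50.9%). Window stretches were longer than those elsewhere in the table, with a median of 408 bases and 35 sites against 122 bases and 12 sites over the other 240 stretches. The window was chosen by its number of sites, so this comparison is a description and not a result. Whether the sites of the window stretches were denser depended on the measure. Over all covered bases there were 8.86 sites per 100 bases in the other stretches, fewer than in the window, but among stretches of 10 or more sites the median density was 9.08 in the window and 11.2 elsewhere. The first 14 stretches lay outside gene spans, and the last 5 lay in Gm36408.

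The mean level of the window's sites was 46.0% ± 0.316 (SD, n = 2). The libraries of biological replicate 1 stood at 47.7% and 44.0%, and those of replicate 2 at 44.1% and 48.4%. Technical replicates thus lay further apart than the biological means, 45.8% and 46.3%, although a mean of 2 libraries varies less than a single library. The same libraries were high and low over the sites outside the window, at 54.7% and 50.4% for replicate 1 and 50.9% and 54.6% for replicate 2. Site means in the window ran from 11.8% to 97.9%, and the middle 50% lay between 27.1% and 61.2%. All libraries read 50% or more at 292 sites (24.8%) and less than 20% at 42 sites (3.57%). Over all listed sites these shares were 33.6% and 2.45%. Over the sites outside gene spans elsewhere in the table they were 30.0% and 7.05%. A reading of 100% occurred in at least 1 library at 104 of the 1177 sites. Elsewhere it did so at 163 of 993 sites outside gene spans and 1149 of 6322 sites inside them. Every library read 100% at 0 sites of the window, 3 of those 993 sites and 68 of those 6322 sites.

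Levels differed more between stretches than between replicates. Stretch means ran from 19.1% to 77.7%, a range of 58.6 points. Within a stretch the 2 biological means lay 0.523 to 15.4 points apart, with an SD between 0.370 and 10.9 points. The range over the 4 libraries of a stretch was 4.91 to 29.0 points. Differences between stretches made up 52.9% of the variance of site means, and the remainder lay among sites of the same stretch. No stretch had a mean between 42.2% and 60.3%. Above that gap were stretches 2, 3, 13, 14 and 18, with 432 sites at 65.1% ± 0.733, and below it were the other 14, with 745 sites at 35.0% ± 0.924 (SD, n = 2 for both). This grouping was made after the values were seen. It depended on the joining distance: with sites up to 100 bases apart joined, 5 of 37 blocks had means inside the gap.

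**Figure D2:**
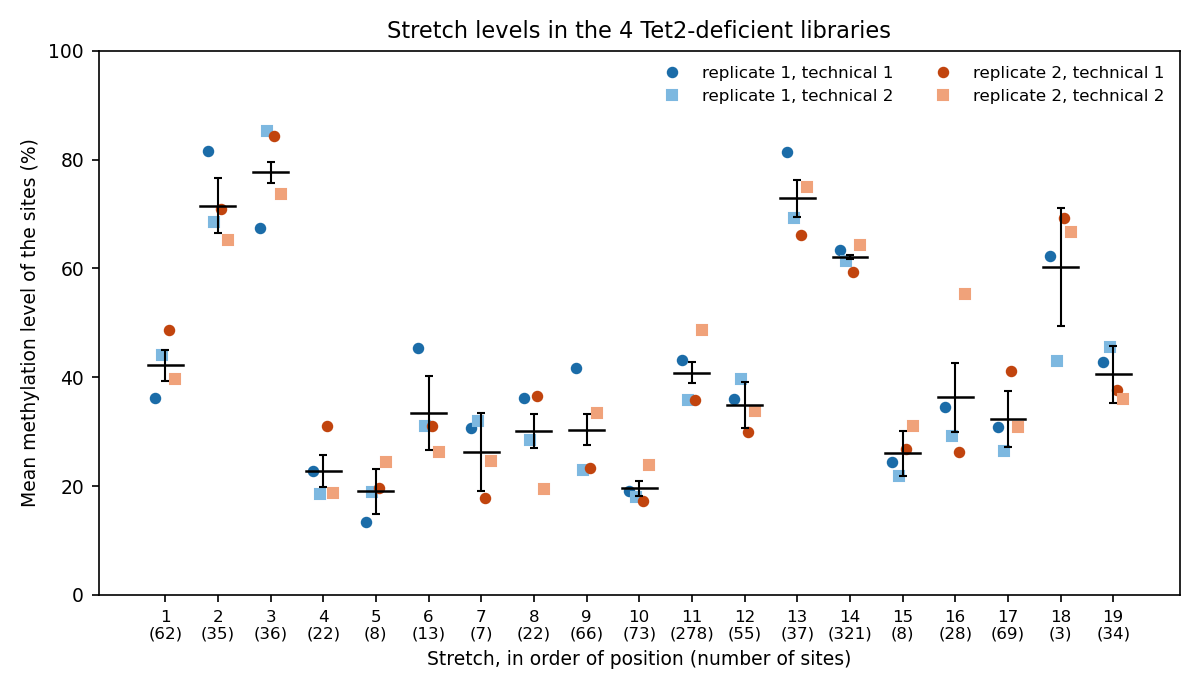
Mean level in percent (vertical axis) of the sites of each of the 19 stretches, in order of position, with the number of sites in brackets. Coloured points are the 4 libraries, black lines give the mean over the 2 biological replicates, with the SD as bars; stretches 2, 3, 13, 14 and 18 lie at 60.3% or more and the others at 42.2% or less.

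Stretch 14, from 66140799 to 66142759, had the most sites, 321 in 1961 bases, and lay outside gene spans. Its libraries stood at 63.3% and 61.3% in replicate 1 and at 59.4% and 64.3% in replicate 2. Their range of 4.91 points was the narrowest of the 19 stretches, and the mean was 62.1% ± 0.370 (SD, n = 2). The highest site, at 66141574, read 100%, 90.9%, 100% and 90.9% in the 4 libraries, in the order of replicates. The lowest, at 66142519, read 33.3%, 13.3%, 18.8% and 14.3%. The stretch divided at a gap of 112 bases into a first block of 165 sites and a second block of 156 sites. The first block, from 66140799 to 66141689, averaged 71.6% ± 2.34 and the second, from 66141801 to 66142759, averaged 52.0% ± 3.23 (SD, n = 2 for both). The second block was lower in 4 of 4 libraries, with differences from -28.4 to -5.35 points. The first library of replicate 1 had the smallest of these differences: it was the lowest library in the first block, at 65.9% against 73.1% to 73.9% in the others, and the highest in the second, at 60.6% against 44.8% to 54.7%.

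Stretch 11, from 66094928 to 66098715, was the longest, with 278 sites in 3788 bases, and also lay outside gene spans. Its libraries stood at 43.1% and 35.8% in replicate 1 and at 35.8% and 48.6% in replicate 2, with a mean of 40.8% ± 1.95 (SD, n = 2). The replicates overlapped, and sites of the stretch ranged from 13.4% at 66095001 to 88.9% at 66097337. Block means were low at both ends of the stretch and high between them. The first block of 12 sites averaged 18.6% ± 5.90, and the next, of 93 sites from 66095304 to 66095942, averaged 28.4% ± 0.902. Levels were 51.8% ± 2.56 over 63 sites from 66096590 to 66097063 and 74.9% ± 2.67 over 33 sites from 66097223 to 66097416. Beyond that peak they were 61.0% ± 9.40 over 19 sites, 27.9% ± 7.36 over 21 sites and 28.7% ± 0.138 over the last 27 sites (SD, n = 2 for each). In the block at the peak, the libraries read 85.1%, 68.6%, 56.0% and 90.1%, so every library was above its own level in the 2 blocks at the start. The 3 blocks not given here, with 1, 8 and 1 sites, had means from 16.9% to 24.6%. Levels also varied within blocks. In the block of 93 sites, the 11 sites with means of 40% or more all lay between 66095838 and 66095908, near its end, where 12 sites had means from 35.6% to 58.1%.

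**Figure D3:**
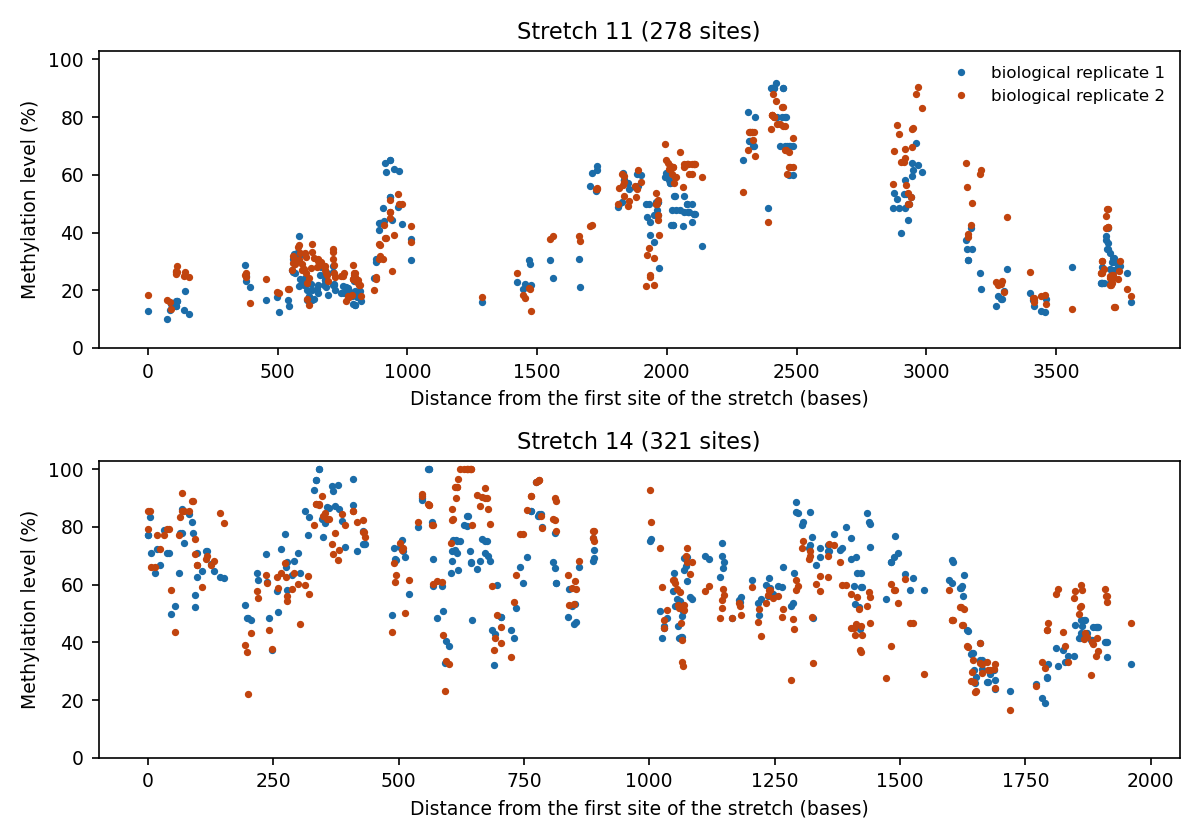
Level in percent of each site (vertical axis) in the 2 stretches with the most sites, against distance in bases from the first site of the stretch; blue and orange points are the 2 biological replicates. In stretch 11 the block averages are 18.6% at the start, 74.9% at the peak and 28.7% at the end, and in stretch 14 the first 165 sites average 71.6% and the last 156 average 52.0%.

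Directly before stretch 11 lay stretch 10, from 66093675 to 66094426, with 73 sites and the lowest level of the stretches of 10 or more sites. Its libraries read 19.2%, 18.0%, 17.3% and 23.9%, with a mean of 19.6% ± 1.44 (SD, n = 2). All of its sites had means of 32.8% or less, the highest at 66093936 and the lowest, 12.3%, at 66094129. It adjoined the low first block of stretch 11, so levels were low on both sides of the gap of 502 bases. No listed site lies in that gap, so levels within it are unknown.

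At the other extreme was stretch 3, from 66021277 to 66021684, with 36 sites. Its libraries read 67.4% and 85.2% in replicate 1 and 84.4% and 73.6% in replicate 2, for a mean of 77.7% ± 1.93 (SD, n = 2), the highest of the 19. The spread between technical replicates, 17.8 points in replicate 1, was wider than the difference between the biological means, which are each averaged over 2 libraries. Its lowest site, the first at 66021277, averaged 46.9%, and its highest, at 66021681, averaged 92.0%. Stretch 2, 882 bases before it, had 35 sites at 71.6% ± 4.98, and stretch 13, from 66136936 to 66137450, had 37 sites at 72.9% ± 3.40 (SD, n = 2 for both). Stretch 13 held the site of 97.9%, the highest mean of the window. Stretch 18, the other one above 60%, rests on only 3 sites, at 60.3% ± 10.9 (SD, n = 2).

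Stretches 1, 9 and 17 were the remaining ones with over 60 sites. Stretch 1, from 66016186 to 66016516, opened the window with 62 sites in 331 bases, or 18.7 sites per 100 bases. Its libraries read 36.2%, 44.2%, 48.7% and 39.7%, with a mean of 42.2% ± 2.86 (SD, n = 2), and the replicates overlapped. Its sites ran from 16.0% at 66016257 to 69.5% at 66016471. Stretch 9, from 66084375 to 66085160, had 66 sites, with libraries at 41.8%, 23.0%, 23.4% and 33.4% and a mean of 30.4% ± 2.83 (SD, n = 2). Here the 2 libraries of replicate 1 were the highest and the lowest of the 4. Their difference was widest in its last 29 sites, from 66084968 to 66085160, where the first library of replicate 1 read 52.6% and the second 20.8%. Single sites of stretch 9 ran from 12.4% at 66084414 to 44.4% at 66084968.

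Stretch 17, from 66228076 to 66228599, was the largest in Gm36408, with 69 sites. Its libraries read 30.9%, 26.4%, 41.1% and 30.8%, for a mean of 32.3% ± 5.18 (SD, n = 2). Sites ran from 12.4% at 66228599, its last position, to 50.2% at 66228295. The other stretches in the gene were stretch 15 with 8 sites at 26.0% ± 4.18, stretch 16 with 28 sites at 36.3% ± 6.29, stretch 18, already described, and stretch 19 with 34 sites at 40.5% ± 5.20 (SD, n = 2 for each). In stretch 16 a single library, the second of replicate 2, read 55.2%, while the other 3 lay between 26.2% and 34.4%, the widest range of any stretch.

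Counted by site, the level in Gm36408 was lower than outside gene spans. The 142 sites averaged 35.3% ± 2.98 and the 1035 sites averaged 47.5% ± 0.0488 (SD, n = 2 for both). The difference was -12.2 points on average and negative in 4 of 4 libraries, from -14.7 to -7.92 points. Only 1 of the 142 sites was at 50% or more in every library, against 291 of the 1035, of which all but 91 lay in stretches 11 and 14. Without these 2 stretches the difference was -5.77 points, still negative in 4 of 4 libraries. With each stretch counted once it was -2.61 points and negative in 3 of 4 libraries, at 39.1% ± 4.26 over the 5 stretches of the gene and 41.7% ± 1.25 over the 14 others (SD, n = 2 for both), and the medians over stretches, 36.3% and 34.1%, lay the other way round. No test was run, since 2 biological replicates cannot give a two-sided exact p below 0.5, and the sites of the gene come from only 5 stretches. The 6 stretches not yet described, numbers 4 to 8 and 12, lay outside gene spans and had means from 19.1% to 34.8%, so low levels were not confined to the gene.

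Set against the other listed sites and counted by site, the window was nearer in mean level to those between genes than to those in genes, an order that turned with each stretch counted once. The 993 other sites outside gene spans averaged 46.4% ± 0.105 (SD, n = 2), and the window differed from them by -0.312 points, negative in 2 of 4 libraries. The 6322 other sites inside gene spans averaged 53.6% ± 0.132 (SD, n = 2). The window was lower than these in 4 of 4 libraries, by -7.86 to -7.30 points. With each stretch counted once, the window stood at 41.0% ± 0.200, the stretches in genes at 41.8% ± 0.464 and the others outside gene spans at 45.0% ± 0.556 (SD, n = 2 for each). The window then differed from the stretches in genes by -0.771 points, negative in 3 of 4 libraries, and from those outside by -4.02 points, negative in 4 of 4. These differences were not tested, because sites of a stretch share reads and there are only 2 biological replicates. The means hide a difference in shape. In the window 10.4% of sites had means under 20% and 10.1% had means of 80% or more; of the other sites outside gene spans, 16.8% and 17.3% did. Without its 2 largest stretches the window stood at 39.6%, which is -6.71 points from the other sites outside gene spans. Of these 2, stretch 14 lay above the window's mean, at 62.1%, and stretch 11 below it, at 40.8%. The other sites outside gene spans kept all their stretches in this comparison.

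**Figure D4:**
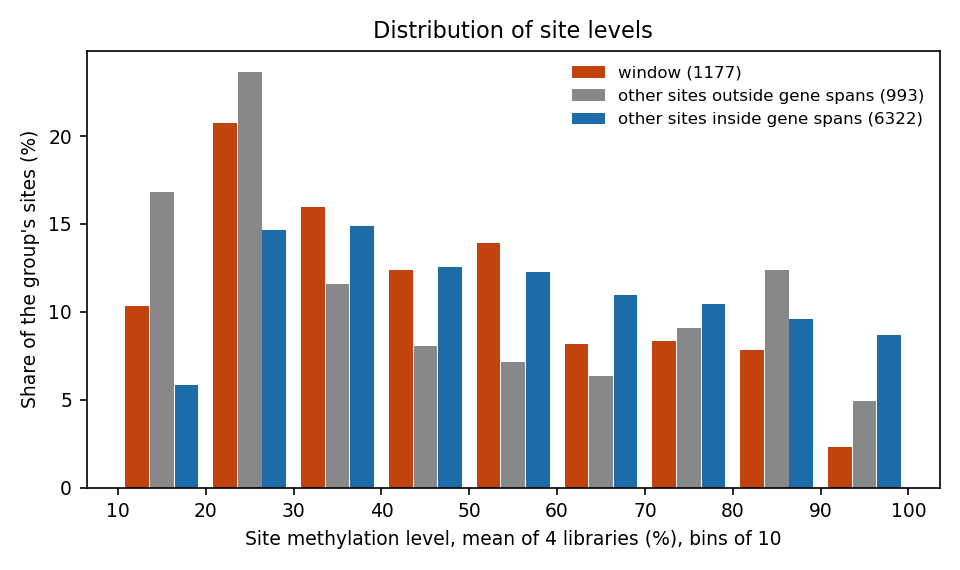
Share of sites in percent (vertical axis, from 0) by level in bins of 10 points, for the 1177 sites of the window, the 993 other sites outside gene spans and the 6322 other sites inside gene spans. The window and the other sites outside gene spans have their tallest bar at 20 to 30%, with 20.7% of the window's sites and 23.7% of the other sites outside gene spans.

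Biological replicates did not stand apart in the window. Over all listed sites, the libraries of the 2 replicates did not overlap at 30.4% of sites, both of one being above both of the other. In the window this was so at 312 of 1177 sites (26.5%), 173 with replicate 2 higher and 139 with replicate 1 higher, so the share was near that of the table. With the column names read the other way round the order turned, with 31.4% of sites in the window and 26.3% in the table. Of the 19 stretches 7 were separated in this way, where 32.8% of the 259 stretches of the table were. Replicate 2 was the higher in 10 of the 19 stretches and replicate 1 in 9. Technical pairs differed by 14.0 points per site on average and biological pairs by 13.1 points, so the libraries of a replicate were not closer to each other than to those of the other. Each of the 4 libraries was the highest in 4 to 6 stretches and the lowest in 3 to 7. The range over libraries of a stretch had a median of 14.1 points, and 29.0 points at most.

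Neighbouring sites carried similar levels, in the window as elsewhere in the table. Of 1158 window sites that followed another in the same stretch, 297 (25.6%) came at the very next base and 147 (12.7%) at a spacing of 2 bases. Over all other stretches these shares were 22.6% and 13.4%. The median difference in mean level was 2.18 points between sites 1 base apart, 5.62 points at 11 to 50 bases and 10.3 points between neighbours over 100 bases apart. Over all other sites these medians were 1.92, 5.09 and 10.7 points. Steep steps also occurred. The largest in the window was in stretch 2, between 66020180 at 29.5% and 66020220 at 82.0%, which are 40 bases apart. The first of these read 50%, 21.4%, 28.6% and 18.2% in the 4 libraries and the second 81.2%, 66.7%, 100% and 80%, so the libraries did not overlap. This pair was chosen for its size, and steps elsewhere in the table reached 71.9 points.

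Close sites also deviated together between libraries. For each site the deviation of every library from the site's own mean was taken, library means were removed, and pairs of sites of a stretch were correlated. For sites 1 to 10 bases apart the correlation was 0.750 in the window (1997 pairs) and 0.759 elsewhere. It was 0.564 in the window and 0.495 elsewhere at 11 to 50 bases, and 0.338 and 0.233 at 51 to 150 bases. At 301 to 500 bases it was 0.106 in the window and 0.0267 elsewhere. These are descriptions over pairs that share libraries and sites, and close sites share reads as well. The part of the correlation due to shared reads cannot be given without read data. No test of the difference was run.

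**Figure D5:**
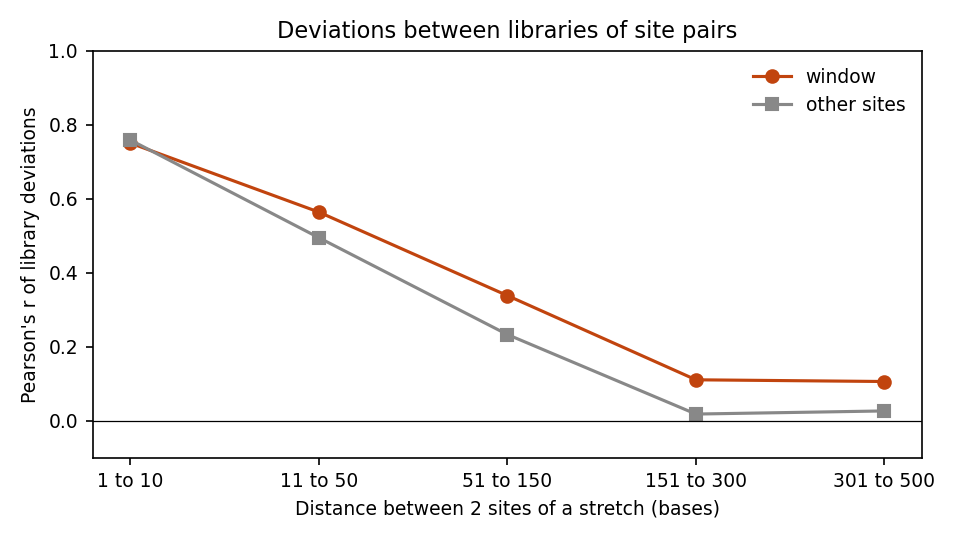
Pearson's r between the library deviations of 2 sites of a stretch (vertical axis) by how many bases lie between them (horizontal axis, 5 bins of unequal width), for the window and for all other sites. The window's value falls from 0.750 at 1 to 10 bases to 0.106 at 301 to 500 bases, where the other sites stand at 0.0267.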

How the data were processed

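Poly(A) RNA of mast cells was treated with DNase, mixed with unmethylated lambda RNA, converted with bisulfite and made into stranded libraries, per the labels' protocols. Builds mm10 and GRCm38 are named in the submitters' processing notes. The aligner is not given in the sources used here, nor are the caller, coverage minimum and conversion rate. Methylation rates are the deposited values, a fraction per site and library per the file headers, and were multiplied to percent here. The authors listed sites they called specific to Tet2 deficiency, per the file headers, and the lowest level in the table is 10%. The table has no strand and no read number, so depth and counting error are unknown.

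Column names were matched to titles by taking their first number for the biological and their last for the technical replicate. Technical replicates were averaged before the SD over 2 biological replicates was computed. Sites up to 500 bases apart were joined into stretches, and sites up to 100 bases apart into blocks. Gene spans came from the RefSeq annotation of GRCm38 patch 6. The window, the lists and the rules for what is named were chosen with earlier results of these data known. Named stretches are the 6 with the most sites and the highest and lowest by level among those of 10 or more sites; their highest and lowest sites, every gene overlapping the window and the nearest genes are named too. The planned comparison of genotypes and the planned description of sequence context were not run, because wild-type levels and genome sequence were not used here. No test was applied to levels. The joining and correlation steps were tested on simulated data. Alternatives covered clustered sites, level minimums, join distances, weighting, gene spans, replicates and the reading of the column names. Computation used pandas 2.3.3, numpy 2.4.6 and scipy 1.17.1 under Python 3.11.15, and figures used matplotlib 3.10.9.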

Additional observations from a re-analysis of the deposited data

Results flagged for a closer look

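Single libraries that lay far from the remaining 3 were looked for in 41 values (the window, its 19 stretches, the sites in Gm36408 and the blocks of 10 or more sites in divided stretches). This was the case in 1 of them, and chance gives about 1 in 20. In the first block of stretch 14, with 165 sites, the first library of biological replicate 1 read 65.9%, while the other 3 lay between 73.1% and 73.9%. That gap was 0.904 of the range over the 4 libraries. The same library was the highest of the 4 in the second block of that stretch, so the mean of the whole stretch shows no library apart. The cause was not tested.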

How the results depend on the processing

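The mean level of the window, 46.0%, became 31.7% without clustered sites (listed sites that have a listed neighbour at most 10 bases away), 56.2% with at least 20% in every library, 41.0% with each stretch counted once, 40.0% and 39.5% with each counted once after joining at 100 and 1000 bases, 42.0% as a median and, as an alternative chosen after seeing the data, 39.6% without stretches 11 and 14. The number of sites, 1177, became 812 with at least 20% in all libraries, 880 and 250 with positions within 1 and 10 bases merged, and 68 without clustered sites, the last chosen after seeing the data. Joining at 100 bases gave 37 stretches and at 1000 bases 15. The share outside gene spans, 87.9%, became 80.9% without clustered sites, 73.7% with each stretch counted once and 100% with protein-coding genes only. Stretch 14, at 62.1%, read 39.6% without clustered sites, 64.4% with at least 20% in every library and 63.2% as a median. The 39.6% rests on few sites, all of them between 66141964 and 66142759 in its lower second block. Joining at 100 bases made the first block of stretch 14 the largest stretch, at 71.6%. Joining at 1000 bases made stretches 10 and 11 the largest, at 36.4%. The difference from other sites outside gene spans, -0.312 points, became -1.02 without clustered sites, -7.06 at 20% or more in every library, -4.02 with each stretch counted once and -6.71 without stretches 11 and 14. Among alternatives chosen after seeing the data, the difference from sites inside genes, -7.60 points, became -0.771 with each stretch counted once, and that between Gm36408 and the sites outside gene spans, -12.2 points, became -2.61 with each stretch counted once and -5.77 without stretches 11 and 14. The 24.8% of sites at 50% or more in every library became 4.41%, 36.0% and 15.9% under the same settings of clustered sites, level minimum and removal of stretches 11 and 14. With the column names read the other way round, 31.4% of sites in place of 26.5% had replicates that did not overlap, and 26.3% in place of 30.4% over the whole table. Between sites 1 to 10 bases apart the correlation was 0.734 to 0.791 with a stretch left out and 0.760 with library means kept. Leaving out either biological replicate gave 45.8% to 46.3% for the window, 61.8% to 62.3% for stretch 14 and -0.462 to -0.163 points for the difference, within the SD by construction. Of the 7 named stretches, 6 kept sites without clustered ones, and all 6 were lower, by -22.5 to -2.32 points. Few sites are behind these values: only 68 remain in the whole window, and in stretch 1 only the site at 66016348. Causes were not tested. No paired analysis was possible because only Tet2-deficient libraries have levels here, and replicate numbers pair nothing within 1 genotype. What depth limits cannot be given, since read numbers are unknown.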

Other observations

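The 68 window sites with no other listed site within 10 bases averaged 31.7% ± 1.73, and the 1109 clustered ones averaged 46.9% ± 0.230 (SD, n = 2 for both). Of 927 neighbours at most 10 bases apart in the window, 38 (4.10%) had the same level in every library, against 7.02% elsewhere. Across the 15 window stretches of 10 or more sites, the mean level and the SD over sites had Spearman's rho of 0.793, as a description. Levels under 10% are not in the table, so stretches with low means had less room to spread. How far this raises the rho was not tested. Over all 19 stretches, the number of sites and the mean level had a rho of 0.295.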
